A study of Mus musculus with 12 samples.

Results

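The oligoadenylate synthetase family in mouse embryonic fibroblasts is described here across 4 groups of arrays that differ in the DNA damage kinase ATM and in irradiation. The members were 6 listed genes, Oas1a, Oas1d, Oas1f, Oas2, Oasl1 and Oasl2, taken with every probe whose transcript accession maps to them. They had 7 probes, 2 of them for Oas2, among 41174 probes for 17304 named genes. All 6 passed the filter on dim probes, which kept a gene if some group had a well-detected spot in each of its 3 arrays, although Oas1d did so only outside the nonirradiated wild-type cells. The list was chosen by the members' measured differences with irradiation and genotype on these arrays, so the levels and differences are a description and carry no test. Of 6 close relatives, Oas1c, Oas1e, Oas1g, Oas1h and Oas3 had 7 probes and are given separately. Oas1b had no matched probe and was not analysed here.

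Total RNA was hybridised to 12 single-colour arrays, 3 in each group. The nonirradiated Atm wild-type cells are called NonIR-WT, the wild-type cells that received 4.32 Gy are called IR-WT, and the corresponding Atm knockout cells are NonIR-KO and IR-KO. Cultures stood for 72 h after irradiation. The knockout allele, the strain and the age of the embryos are not given in the sources used here. Nothing states that the replicates were separate embryos or cultures, so the errors cover the spread between these samples only, which may be technical.

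Oligoadenylate synthetases are interferon-induced sensors of double-stranded RNA. On binding it they join ATP into 2′,5′-linked oligoadenylates, a second messenger that leads to the cutting of viral and cellular RNA. In fibroblasts their transcripts are low at rest and climb when interferon acts through its receptor, and ATM itself is activated by DNA breaks and is lost in ataxia telangiectasia. In the mouse the Oas1 gene was copied repeatedly, and not every copy kept the enzyme activity.

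In their order on chromosome 5 of the reference, Oasl2 and Oasl1 lay near each other, and the remaining genes formed a second locus in the order Oas2, Oas3, Oas1e, Oas1c, Oas1b, Oas1f, Oas1h, Oas1g, Oas1a and Oas1d. The reference lists Oas1b as a transcribed pseudogene. RefSeq promoters, in build GRCm38.p6, were matched for 4 of 6 members and 4 of 6 relatives, and those of Oas1d and Oas2 are only named. The 250 bases before each start site were searched on both strands for the core of the interferon-stimulated response element, written here as GAAA, any 2 bases, and GAAA again, and for the gamma-activated site, written as TTCNNNGAA. Among 32851 mouse windows of this length, 2.98% held the first motif, 0.18% held it at least 2 times, and 7.02% held the second. Matches of the first motif may overlap each other. The sequences of members with a promoter entry are shown to let the start-proximal letters be compared; capitals mark the first motif, and each run reads 5′ to 3′. The Oas1a window was chr5:120907526-120907775 on the minus strand, that of Oas1f was chr5:120847117-120847366 on the plus strand, that of Oasl1 was chr5:114922990-114923172 on the plus strand, cut at 183 bases because its start lies inside the annotated gene, and that of Oasl2 was chr5:114896684-114896933 on the plus strand.
Oas1a: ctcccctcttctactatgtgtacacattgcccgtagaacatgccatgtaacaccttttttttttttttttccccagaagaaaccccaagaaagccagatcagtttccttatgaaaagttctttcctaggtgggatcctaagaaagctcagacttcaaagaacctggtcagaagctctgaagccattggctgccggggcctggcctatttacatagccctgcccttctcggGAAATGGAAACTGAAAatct
Oas1f: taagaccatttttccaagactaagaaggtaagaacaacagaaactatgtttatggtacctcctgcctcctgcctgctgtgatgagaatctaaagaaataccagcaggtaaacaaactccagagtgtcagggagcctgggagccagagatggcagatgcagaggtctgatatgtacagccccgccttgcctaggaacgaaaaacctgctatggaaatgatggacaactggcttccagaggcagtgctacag
Oasl1: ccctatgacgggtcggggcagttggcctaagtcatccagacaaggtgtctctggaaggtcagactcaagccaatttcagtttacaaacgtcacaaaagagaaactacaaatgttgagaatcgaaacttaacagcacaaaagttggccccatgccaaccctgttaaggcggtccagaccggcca
Oasl2: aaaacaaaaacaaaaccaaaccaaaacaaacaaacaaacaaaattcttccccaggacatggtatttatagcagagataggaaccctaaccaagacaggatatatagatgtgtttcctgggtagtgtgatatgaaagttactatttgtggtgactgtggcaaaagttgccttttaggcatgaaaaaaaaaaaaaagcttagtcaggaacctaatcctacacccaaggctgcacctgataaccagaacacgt
Oas1a held 2 overlapping matches of the first motif, at bases -20 to -11 and -14 to -5 counted from the start site, and 1 of the second, at -98 to -90. No match to either motif's letters was found in the windows of Oas1f, Oasl1 and Oasl2.

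The relatives are shown for the same letters. Oas1g stands directly beside Oas1a, and 212 of 256 aligned columns of their windows were identical (82.8%). Its 2 overlapping matches lay at -18 to -9 and -12 to -3. Oas1c held 2 overlapping matches on the opposite strand, at -114 to -105 and -108 to -99, and Oas3 held 1, at -75 to -66. Oas1h held none, and 194 of 266 aligned columns of its window (72.9%) were identical to that of Oas1f. In all, 1 of 4 members and 3 of 4 relatives with a promoter entry held the first motif. A match is a run of letters and not a shown binding site. The Oas1g stretch is chr5:120887614-120887646 on the minus strand, the Oas1c stretch chr5:120812598-120812643 on the minus strand and the Oas3 stretch chr5:120777710-120777749 on the minus strand.
Oas1g: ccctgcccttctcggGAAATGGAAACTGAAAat
Oas1c: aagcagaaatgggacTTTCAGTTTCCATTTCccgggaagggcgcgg
Oas3: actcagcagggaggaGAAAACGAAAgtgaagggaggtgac

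Signals are given as log2 of the processed spot signal minus the array's own 75th percentile, so that 0 is a spot as bright as that percentile. The percentile itself ran from 379 to 757 signal units between arrays, 55.3% to 64.5% of probes stood well above background, and no spot was saturated. All 8 fibroblast markers were above background on every array of every group. The targeted gene was checked first. On its brighter probe Atm read -3.55, -5.65 and -4.25 in NonIR-WT replicates 1 to 3 and -5.43, -7.01 and -6.20 in NonIR-KO. It read -2.87, -4.60 and -4.60 in IR-WT and -5.66, -7.50 and -6.48 in IR-KO. NonIR-KO arrays were raised to at least their lowest signal well above background. The NonIR-WT mean was then 1.96-fold higher on this probe and 1.14-fold higher on the dimmer one. Measured knockout minus wild type without irradiation was -1.73 ± 0.66 on the brighter probe (SE, n = 3 arrays a group, limma adjusted p = 0.476). Its 95% interval was -3.16 to -0.30. After irradiation the measured difference was -2.52 ± 0.66 (limma adjusted p = 0.225). With the replicate number as a block the second adjusted p was 0.0235, although no label states that same-numbered samples of the genotypes are paired. Above-background spots of the brighter probe numbered 2, 3, 0 and 1 in NonIR-WT, IR-WT, NonIR-KO and IR-KO, and the nonirradiated groups overlapped. Whether the probe lies inside the deleted part is not given.

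In all 6 members the nonirradiated wild-type cells held the lowest signal and the irradiated knockout cells the highest group mean. Irradiation went with a large measured increase in wild-type cells and a smaller one in knockout cells. The nonirradiated knockout level already stood near, or for Oas1a and Oas1f above, that of irradiated wild-type cells. For Oas1d these sizes are not shown. Its NonIR-WT spots were not well above background, and irradiated wild-type cells were at least 1.53-fold higher. With normexp background correction its irradiation difference was -0.43 in wild-type and 0.45 in knockout cells. Arrays were compared on each gene's brightest probe, a feature being a gene or an unnamed probe. Every NonIR-WT array lay below every other array for 6 of 6 members, against 1.41% of the 18430 features tested. That pattern is part of what the family was picked for, and nothing is read from it.

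Oas1a encodes an active synthetase of the 2′,5′ pathway. Its signal was -1.37, -0.52 and -0.84 in NonIR-WT replicates 1 to 3, and 2.51, 2.74 and 2.76 in IR-WT. It was 4.01, 4.35 and 4.03 in NonIR-KO, and 4.58, 4.81 and 4.77 in IR-KO. The 4 groups did not overlap, and they stepped up in that order. The difference with irradiation was 3.58 ± 0.25 (SE) in wild-type cells, 11.9-fold, and 0.59 ± 0.25, 1.51-fold, in knockout cells. Without irradiation the knockout stood 5.04 ± 0.25 above the wild type, 32.8-fold, and after irradiation 2.05 ± 0.25 above it, 4.14-fold.

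Oas1f is an Oas1 copy of the same locus. It read -1.53, -0.70 and -0.21 in NonIR-WT replicates 1 to 3, and 2.30, 2.57 and 3.39 in IR-WT. In NonIR-KO it read 4.27, 3.77 and 3.62, and in IR-KO 5.00, 4.42 and 4.52. As for Oas1a, the groups followed one another with no overlap. The difference with irradiation was 3.57 ± 0.38 (SE) in wild-type and 0.76 ± 0.38 in knockout cells, and the knockout exceeded the wild type by 4.70 ± 0.38 without and 1.89 ± 0.38 after irradiation. Oas1a and Oas1f were the 2 members in which the strict order NonIR-WT, IR-WT, NonIR-KO, IR-KO held on all arrays, an order found in 8 features, 0.0434% of those tested.

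Oas1d, an Oas1 copy known in the mouse for its expression in the ovary, was dim. It read -8.19, -7.32 and -7.61 in NonIR-WT replicates 1 to 3, on none of which it was well above background, and -5.36, -4.37 and -5.0 in IR-WT. In NonIR-KO it read -4.00, -4.35 and -4.75 and in IR-KO -2.96, -3.14 and -3.66. NonIR-WT was lowest and IR-KO highest, while IR-WT and NonIR-KO overlapped. Because the NonIR-WT spots give only a bound, the irradiated wild-type cells were at least 1.53-fold higher and the nonirradiated knockout cells at least 2.23-fold higher. A bound sets each dim array at its lowest signal well above background, and does not allow for the spread between arrays. The measured differences were 2.80 ± 0.34 and 3.34 ± 0.34 (SE). With normexp background correction they turned to -0.43 and -0.24, so their direction depended on this setting. The difference with irradiation in knockout cells was 1.12 ± 0.34, and the genotype difference after irradiation 1.66 ± 0.34; these kept their direction under normexp, at 0.45 and 0.64.

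Oas2 encodes the membrane-associated synthetase with a duplicated catalytic unit. Its brighter probe read -3.80, -2.48 and -2.91 in NonIR-WT replicates 1 to 3 and 0.49, 1.17 and 1.42 in IR-WT. It read -0.49, 1.36 and 0.77 in NonIR-KO and 1.68, 2.22 and 2.41 in IR-KO. IR-WT and NonIR-KO overlapped, and NonIR-KO replicate 1 was the lowest array outside NonIR-WT. The difference with irradiation was 4.09 ± 0.47 (SE) in wild-type cells and 1.56 ± 0.47 in knockout cells. The former was 2.63 with normexp and 3.23 with the mean over both probes. The knockout exceeded the wild type by 3.61 ± 0.47 without irradiation and 1.08 ± 0.47 after it. The former was 2.61 with the slide as a block, 2.25 with normexp and 2.54 with the mean over both probes. The dimmer Oas2 probe was above background on 0, 2, 1 and 3 arrays of NonIR-WT, IR-WT, NonIR-KO and IR-KO. It gave differences of 2.36 and 1.90 with irradiation in wild-type and knockout cells. Without irradiation the knockout exceeded the wild type on it by 1.47, with overlapping groups. These are taken against spots mostly not well above background, so the probes' sizes are not compared.

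Oasl1, whose mouse protein lacks synthetase activity and restrains translation of Irf7, read -3.10, -1.94 and -2.74 in NonIR-WT replicates 1 to 3. It read 0.27, 0.95 and 0.80 in IR-WT, 0.84, 0.48 and 0.10 in NonIR-KO, and 2.34, 1.84 and 2.05 in IR-KO. IR-WT and NonIR-KO covered much the same range, between a low NonIR-WT and a high IR-KO. The difference with irradiation was 3.26 ± 0.33 (SE) in wild-type cells and 1.60 ± 0.33 in knockout cells. The genotype difference was 3.06 ± 0.33 without and 1.41 ± 0.33 after irradiation.

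Oasl2, which pairs a synthetase unit with ubiquitin-like repeats, read 1.79, 2.68 and 2.39 in NonIR-WT replicates 1 to 3 and 5.09, 5.14 and 5.48 in IR-WT. It read 4.74, 5.24 and 4.99 in NonIR-KO and 5.46, 5.72 and 5.71 in IR-KO. Oasl2 was the 1 member whose irradiated groups overlapped between genotypes. Its differences with irradiation were 2.95 ± 0.27 (SE) in wild-type and 0.64 ± 0.27 in knockout cells. The knockout exceeded the wild type by 2.70 ± 0.27 without irradiation. After irradiation the genotypes differed by 0.39 ± 0.27, with a 95% interval from -0.20 to 0.98.

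**Figure D1:**
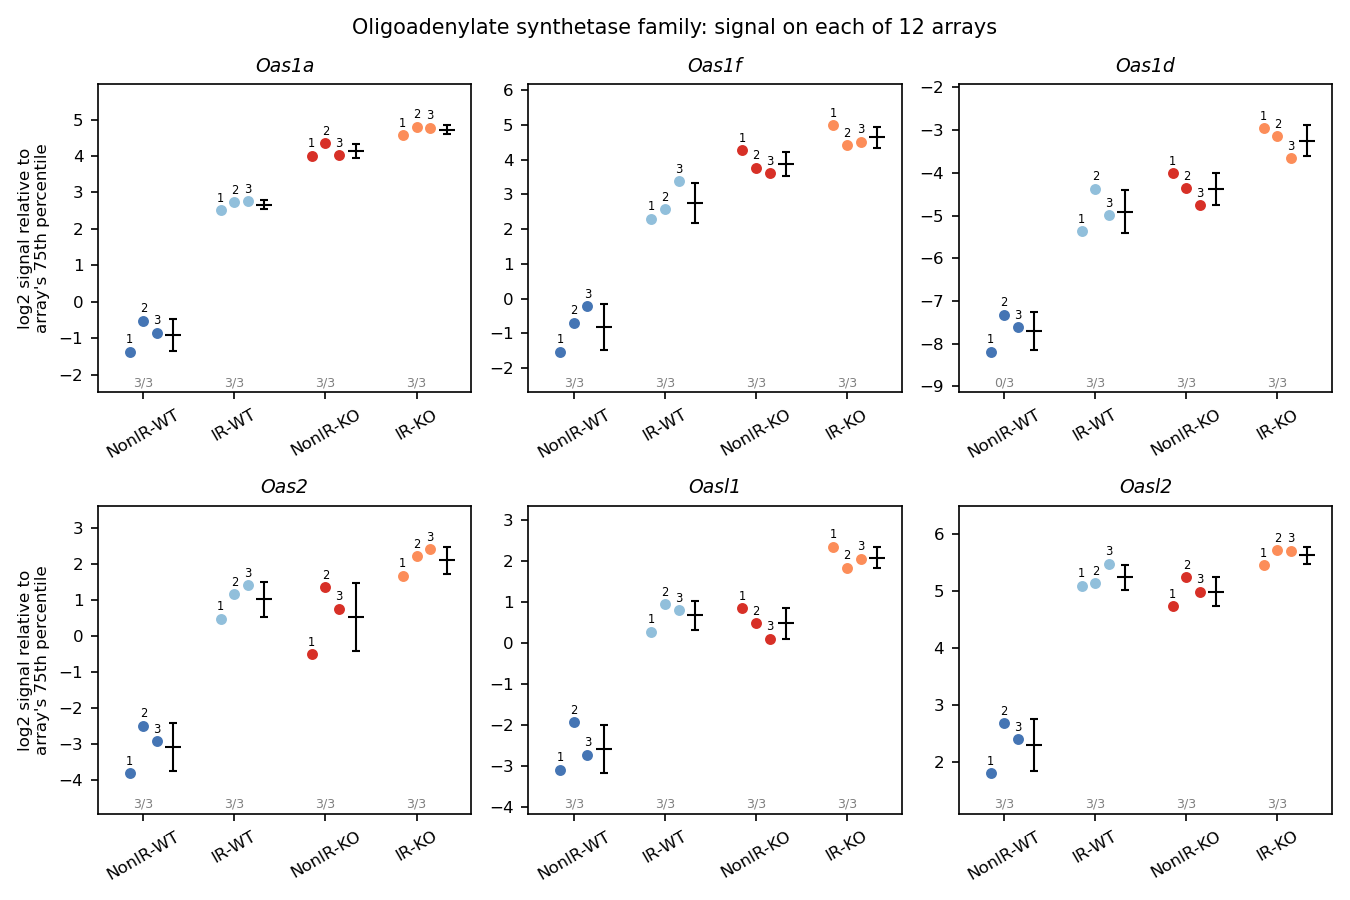
Each panel plots 1 gene's log2 signal, scaled to the 75th percentile of each array, on the 12 arrays (points, numbered by replicate), with the group mean and SD as black bars and, in grey, how many of the 3 arrays stood well above background. NonIR-WT is lowest in every panel, and IR-WT and NonIR-KO are separate only for Oas1a and Oas1f.

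The middle of the order was where members differed. NonIR-KO minus IR-WT was 1.46 ± 0.25 (SE) for Oas1a and 1.13 ± 0.38 for Oas1f, each with no overlap. It was 0.54 ± 0.34 for Oas1d, -0.48 ± 0.47 for Oas2, -0.20 ± 0.33 for Oasl1 and -0.25 ± 0.27 for Oasl2, and these 4 overlapped. A higher NonIR-KO on every array was seen in 10.6% of all features, and nothing is read from the 2 of 6 members here. These groups lie mainly on different slides: slide 1 held 2 wild-type pairs, slide 2 the third wild-type and the first knockout pair, and slide 3 the other knockout pairs.

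Over the 6 members the median difference with irradiation in wild-type cells was 3.41 (range 2.80 to 4.09), beside -0.02 over all features tested. All 6 members were called higher there at a limma adjusted p under 0.05, against 0.423% of all features. Oas1d, the low end of this range, rests on NonIR-WT spots that were not well above background, and its sign turned with normexp. In knockout cells the median was 0.94 (0.59 to 1.60), beside -0.05. No member was called in that comparison, in which 1 of 18430 features (0.00543%) was called by limma and 1462 (7.93%) reached an unadjusted p under 0.05. With blocks for the replicate number 3 members, Oas1d, Oas2 and Oasl1, were called higher, beside 1.18% of features called higher. All 6 members were nevertheless higher on every irradiated knockout array than on every nonirradiated one, as were 6.7% of features. Since the family was chosen with these comparisons known, these counts are read only as a description.

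The difference with irradiation was smaller in the knockout for every member, although normexp turned that of Oas1d to 0.88 in favour of the knockout. The difference of the effects, knockout minus wild type, ran from -2.99 ± 0.36 (SE) for Oas1a to -1.66 ± 0.47 for Oasl1, with a median of -2.42 beside -0.06 over all features. In this contrast Oas1a was the 1 feature called of 18430 (0.00543%), and 166 (0.901%) had an unadjusted p under 0.05. The call was lost in 11 of the 12 fits that leave out 1 array, that is in each except the fit without NonIR-WT replicate 2, while the difference stayed between -3.18 and -2.76. With the replicate block Oas1a and Oas1f were called, beside 0.0217% of features.

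Without irradiation the knockout exceeded the wild type by a median of 3.47 (2.70 to 5.04) over the members, beside 0.04 over all features, and 6 members were called higher against 0.391% of features, from which nothing is read. They include Oas1d, whose NonIR-WT spots were not well above background and whose sign turned with normexp. After irradiation the median was 1.53 (0.39 to 2.05), beside -0.01, and 1 member, Oas1a, was called higher against 0.0597%. That call was lost with the slide as a block, where the Oas1a difference was 1.84. The call was also lost without IR-WT replicate 2, IR-KO replicate 2 or IR-KO replicate 3. Over all fits without 1 array the Oas1a difference was between 1.97 and 2.12. With the slide as a block, the difference after irradiation was 0.08 for Oas2 and 0.00 for Oasl2.

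**Figure D2:**
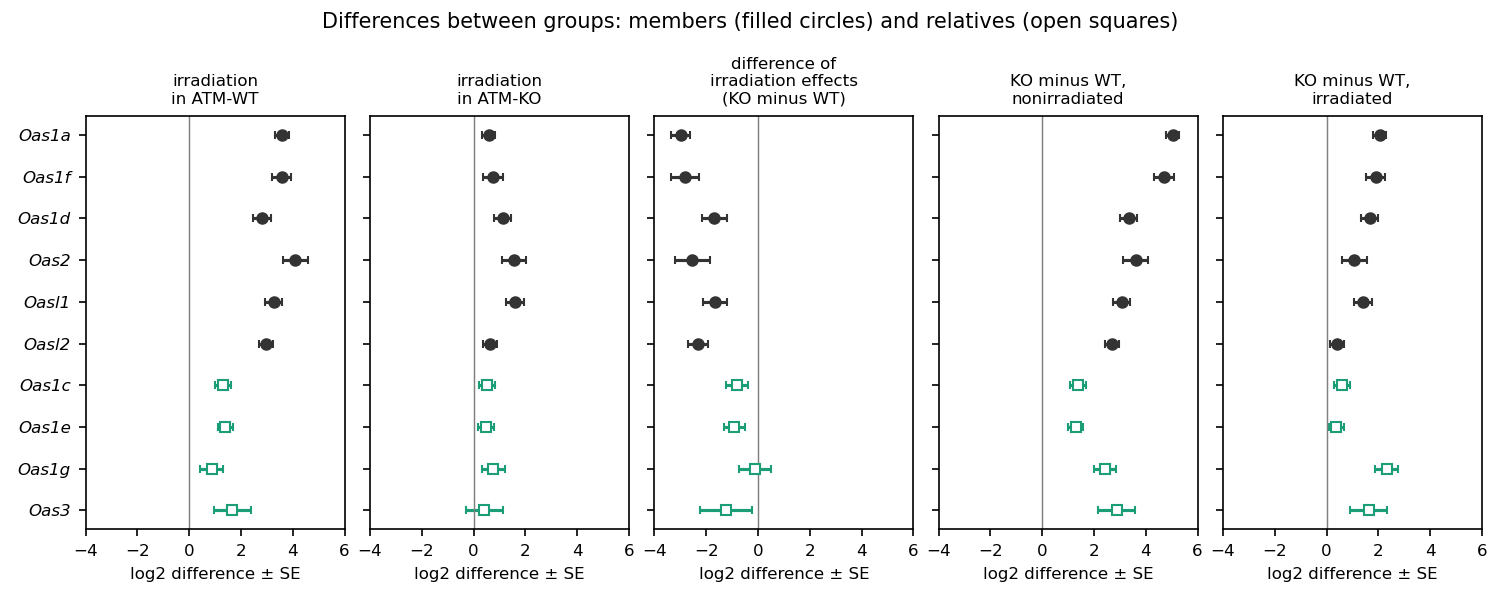
Points give the log2 difference and bars its SE from the limma fit for 6 members (filled circles) and 4 tested relatives (open squares) in 5 comparisons. The members stand right of 0 for both irradiation effects and both genotype differences and left of 0, from -2.99 to -1.66, for the difference of the irradiation effects.

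NonIR-WT replicate 1 was the lowest array for all 6 members. Without it the family median with irradiation in wild-type cells was 3.11 and that of the knockout against the wild type without irradiation 3.17. Within slides, the median with irradiation in wild-type cells was 3.34 on slide 1 (2 arrays a group) and 3.57 on slide 2 (1 array a group). In knockout cells it was 0.89 on slide 2 and 0.97 on slide 3. Slide 2 alone held both genotypes, with 1 array of each group, and there the knockout exceeded the wild type by a median of 3.59 without and 1.58 after irradiation. Irradiated RNA always took array positions 2 or 4 of a slide and nonirradiated RNA 1 or 3, so irradiation and array position cannot be told apart.

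Macrophage and blood cell markers also moved with genotype. The summed linear signal of 9 macrophage and blood cell markers, in multiples of the 75th percentile, was 2.48 to 4.60 in NonIR-WT, 1.85 to 2.84 in IR-WT, 0.249 to 0.480 in NonIR-KO and 0.306 to 0.489 in IR-KO. Ptprc and Itgam were below background on all knockout arrays, and Adgre1 on all NonIR-KO arrays. Epithelial markers summed to 0.701 to 1.78, 0.880 to 2.37, 0.455 to 3.89 and 0.729 to 4.43 in the same order of groups. The epithelial ranges overlapped between genotypes. Endothelial markers summed to 0.298 to 0.502, 0.287 to 0.482, 0.118 to 0.271 and 0.221 to 0.415 in that order. These overlapped between genotypes after irradiation and not without it. Pecam1 was below background on all arrays. The part of these markers in the results was not tested. In such bulk RNA, fewer cells of a type and less RNA per cell cannot be told apart.

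Over the 4 relatives tested the median difference with irradiation was 1.35 in wild-type and 0.50 in knockout cells, and the knockout exceeded the wild type by medians of 1.90 without and 1.1 after irradiation. Oas1c read -1.09, -0.13 and -0.39 in NonIR-WT replicates 1 to 3, 0.35, 1.13 and 0.87 in IR-WT, 0.61, 1.06 and 0.86 in NonIR-KO, and 1.04, 1.54 and 1.50 in IR-KO. Its difference with irradiation in wild-type cells was 1.31 ± 0.31 (SE; limma adjusted p = 0.139), which passed with the replicate block (adjusted p = 0.00455). Its genotype difference without irradiation was 1.38 ± 0.31 (adjusted p = 0.0726). NonIR-WT lay below every other array, and the other 3 groups lay close together.

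Oas1e read -4.33, -3.44 and -3.43 in NonIR-WT replicates 1 to 3, -2.76, -1.97 and -2.30 in IR-WT, -2.43, -2.52 and -2.39 in NonIR-KO, and -2.14, -1.88 and -1.87 in IR-KO. It too stood lowest in NonIR-WT. Its difference with irradiation in wild-type cells was 1.39 ± 0.29 (SE; limma adjusted p = 0.0853), which passed with the block (adjusted p = 0.00496). Without irradiation the knockout differed by 1.29 ± 0.29 (adjusted p = 0.0783) and missed the threshold.

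Oas1g, the neighbour of Oas1a, was above background on knockout arrays alone. It read -8.26, -7.40 and -7.68 in NonIR-WT replicates 1 to 3 and -7.47, -7.61 and -5.66 in IR-WT, on none of which it was well above background. It read -5.26, -5.34 and -5.46 in NonIR-KO and -4.54, -4.47 and -4.76 in IR-KO, with 2 and 3 arrays above background. The knockout was at least 1.13-fold higher without irradiation (measured difference 2.43 ± 0.44, limma adjusted p = 0.021) and at least 2.19-fold higher after it (2.32 ± 0.44, adjusted p = 0.0663). Oas1g passed the filter on dim probes through IR-KO alone, and the adjusted p are computed on spots that were not well above background in wild-type cells. The first call was lost in 5 of 12 fits without 1 array, namely NonIR-WT replicate 1 or 3 or any NonIR-KO replicate, with adjusted p up to 0.11. Normexp turned the difference to -0.44. In wild-type cells irradiation gave a measured 0.87 ± 0.44 (adjusted p = 0.861), with overlapping groups and no spot above background on either side.

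Oas3, a synthetase with several copies of the catalytic unit, read -8.28, -6.65 and -5.38 in NonIR-WT replicates 1 to 3 and -5.69, -5.82 and -3.82 in IR-WT on its brighter probe. It read -3.12, -4.19 and -4.39 in NonIR-KO and -2.82, -3.97 and -3.65 in IR-KO. The NonIR-WT arrays were not above background, 2 of 3 IR-WT arrays were, and replicates spread widely. By the bound on this probe irradiated wild-type cells were at least 1.33-fold higher, with overlapping groups (measured 1.66 ± 0.70, limma adjusted p = 0.703, and 0.0254 with the block). By its bound nonirradiated knockout cells were at least 3.09-fold higher (measured 2.87 ± 0.70, adjusted p = 0.116). With normexp these measured differences turned to -0.54 and -0.10, so their direction depended on this setting. The dimmer Oas3 probe was above background on all irradiated arrays and on no nonirradiated one. On it irradiated wild-type cells were at least 2.06-fold higher, and it gives no bound for nonirradiated knockout cells. Its order of IR-WT and NonIR-KO was the reverse of the brighter probe's. Oas1h stayed below background on all 12 arrays with both probes. Array probes of such close copies may share signal, which the values do not resolve.

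**Figure D3:**
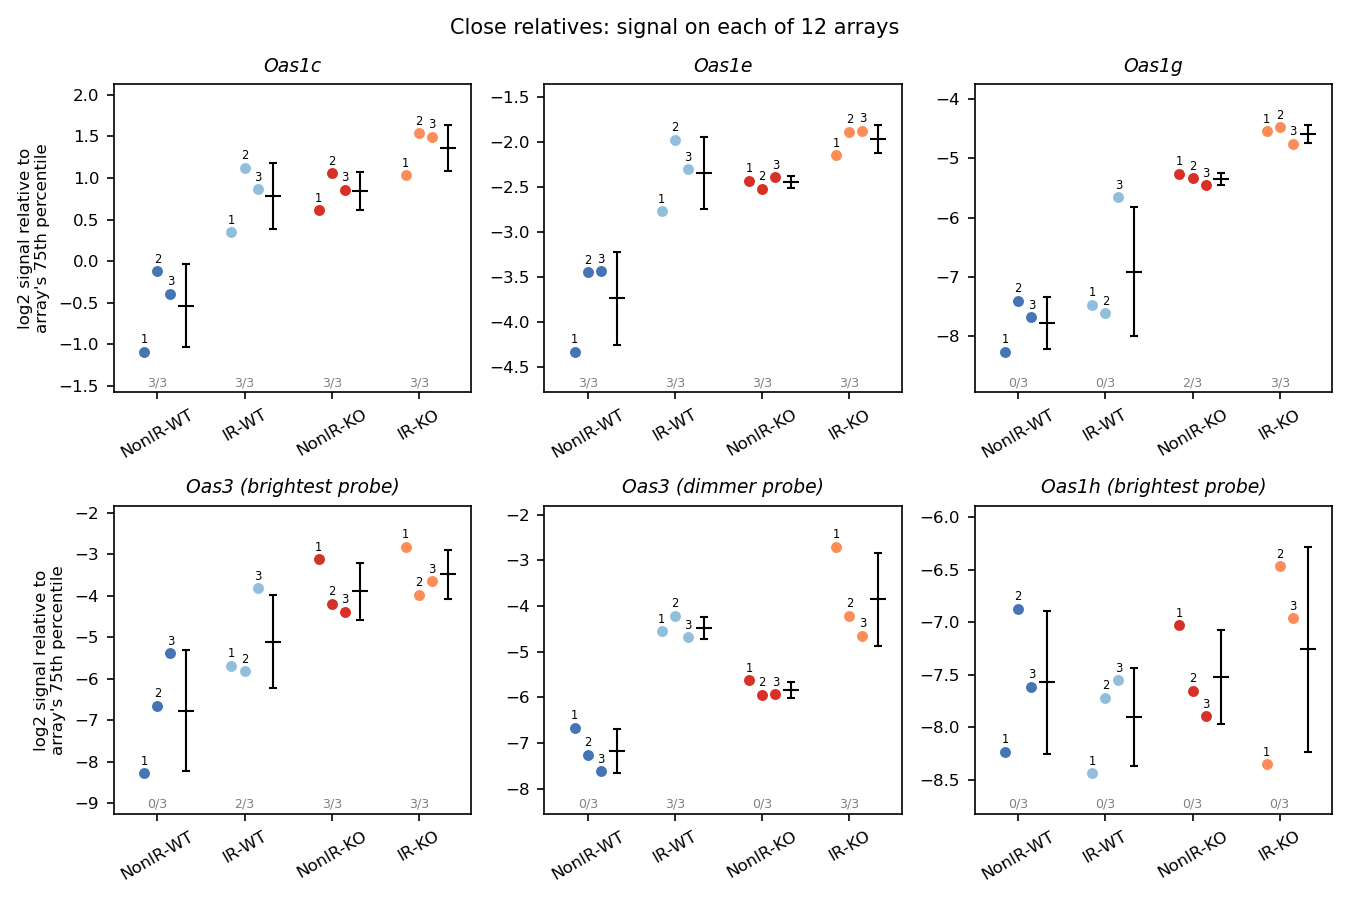
The panels plot the log2 signal, scaled to the 75th percentile of each array, of 5 relatives on each of 12 arrays (points, numbered by replicate), with group mean and SD as bars and the number of arrays above background in grey. Oas1c and Oas1e are lowest in NonIR-WT, Oas1g is above background in knockout groups alone, and the Oas3 probes order IR-WT and NonIR-KO differently.

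By gene order, the members with the largest genotype difference, Oas1f and Oas1a, were not next to each other. Between them lay Oas1h, below background, and Oas1g, at least 1.13-fold higher in the nonirradiated knockout. Oas1e and Oas1c, which follow Oas2 and Oas3, had irradiation differences in wild-type cells of 1.39 and 1.31, beside 4.09 for Oas2. Oasl2 and Oasl1 had 2.95 and 3.26 at their own locus.

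**Figure D4:**
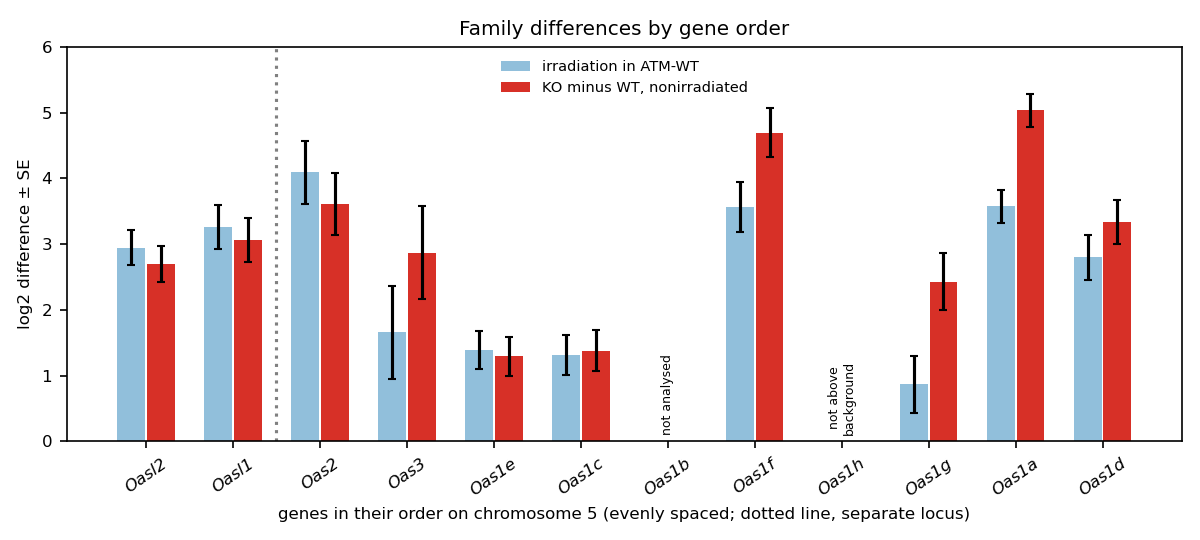
Bars give the log2 difference ± SE for irradiation in wild-type cells (blue) and for knockout minus wild type without irradiation (red), with genes evenly spaced in their order on chromosome 5. Oas1a and Oas1f carry the tallest red bars, 5.04 and 4.70. Bars of Oas1d, Oas3 and Oas1g are measured differences from NonIR-WT spots that were not well above background.

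Of 4 tested genes of the oligoadenylate pathway none was called in any of the 5 comparisons, with or without the replicate block. Abce1, a factor of ribosome recycling, differed by 0.10 ± 0.49 (SE) with irradiation in wild-type cells and -0.02 ± 0.49 by genotype without it. Pde12, a phosphodiesterase that degrades oligoadenylates, gave -0.05 ± 0.26 and -0.35 ± 0.26 in the same comparisons. Akap7, a scaffold protein whose central domain also cleaves them, gave -0.39 ± 0.41 and -1.01 ± 0.41, the latter with a limma adjusted p of 0.527.

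Other sensors of double-stranded RNA were partly called. Of 8 tested, 3 rose with irradiation in wild-type cells, against 0.423% of all features called higher. In nonirradiated knockout cells 2 were higher, against 0.391%. The medians were 1.52 and 1.02. With the block 5 rose with irradiation in wild-type cells, against 1.64% of features called higher. In knockout cells 2 rose with it, against 1.18%, and Zbp1 rose there by 2.10 ± 0.21 (block adjusted p = 0.00894). Zbp1, a sensor of Z-form nucleic acid, rose by 3.85 ± 0.43 (SE; limma adjusted p = 0.00132) with irradiation in wild-type cells, and Ifih1, the sensor MDA5, by 2.31 ± 0.41 (adjusted p = 0.027). The Ifih1 call was lost in 10 of 20 settings, among them normexp, quantile normalization, the percentile over detected probes and no filter on dim probes. The other 6 were fits without 1 array: any NonIR-WT replicate, IR-WT replicate 1 or 3, or NonIR-KO replicate 3 (adjusted p up to 0.128, without NonIR-WT replicate 2). Dhx58, the regulatory helicase LGP2, was higher by 2.38 ± 0.38 (adjusted p = 0.0107) in nonirradiated knockout cells, and its call was lost without NonIR-KO replicate 2 (adjusted p = 0.0775) or 3 and with the slide as a block. Zbp1 was higher there by 2.17 ± 0.43 (adjusted p = 0.038), a call lost in 13 of 20 settings, among them quantile normalization, no filter on dim probes and the slide as a block. In 9 of them 1 array was left out: without any NonIR-KO replicate, NonIR-WT replicate 1 or 3, IR-WT replicate 2 or 3, or IR-KO replicate 2 or 3. Its adjusted p was 0.204 without NonIR-KO replicate 2.

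Ifi204, a DNA-binding sensor, was the 1 called of 5 tested genes of cytosolic DNA sensing. It rose with irradiation in wild-type cells (2.23 ± 0.34 SE, limma adjusted p = 0.0098), where 0.423% of all features were called higher. That call was lost with the mean over a gene's probes and without NonIR-WT replicate 1 or 2 (adjusted p up to 0.0567). With the replicate block Trex1, a nuclease that degrades cytosolic DNA, also rose there by 1.11 ± 0.20 (block adjusted p = 0.0276), and Ifi204 rose in knockout cells by 1.54 ± 0.29 (block adjusted p = 0.0328). The list's medians were 0.60 with irradiation in wild-type cells and 0.28 for the knockout without irradiation, where none was called.

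Among 14 tested genes of type I interferon and its signalling, 4 rose with irradiation in wild-type cells, against 0.423% of all features called higher. In nonirradiated knockout cells 4 were higher, against 0.391%. With the block 6 rose with irradiation in wild-type cells, against 1.64%. The list's medians were 0.33 with irradiation in wild-type cells and 0.27 for the knockout without irradiation. Irf7, the transcription factor that amplifies interferon production, rose by 3.77 ± 0.35 (SE; limma adjusted p = 0.000607) and stood 3.08 ± 0.35 higher in the knockout (adjusted p = 0.0011), a call lost with the slide as a block. With the replicate block it also rose with irradiation in knockout cells, by 1.90 ± 0.24 (block adjusted p = 0.0138). Usp18, a brake on interferon signalling, was called in both comparisons, and Stat2 in the first.

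The interferon gene Ifnb1 was also called by genotype; it is singled out after its values were seen. It was above background on 0, 1, 1 and 3 arrays of NonIR-WT, IR-WT, NonIR-KO and IR-KO. Its signals were -7.85, -7.07 and -7.51 in NonIR-WT replicates 1 to 3, -5.0, -5.72 and -6.42 in IR-WT, -4.90, -5.13 and -5.69 in NonIR-KO, and -3.42, -4.19 and -3.90 in IR-KO. IR-KO was the 1 group in which it was measured on all arrays. The measured difference of the nonirradiated knockout from the wild type was 2.24 ± 0.38 (SE; limma adjusted p = 0.0147), and rests on spots that were mostly not well above background in both groups. The call was lost in 5 of 20 settings: with normexp, with quantile normalization, and without NonIR-WT replicate 1 or 3 or NonIR-KO replicate 2 (adjusted p up to 0.0912). With irradiation in wild-type cells the measured difference was 1.76 ± 0.38 (adjusted p = 0.0918, and 0.028 with the replicate block).

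Of 15 tested other interferon-induced antiviral genes, 8 rose with irradiation in wild-type cells, against 0.423% of all features called higher. In nonirradiated knockout cells 8 were higher, against 0.391%. The medians were 2.38 and 1.89. With the block 13 rose with irradiation in wild-type cells, against 1.64%. Rsad2, which makes a chain-terminating nucleotide, rose by 4.02 ± 0.48 (SE; limma adjusted p = 0.002) in irradiated wild-type cells, a call lost with normexp, and Xaf1, a pro-apoptotic factor, by 1.76 ± 0.24 (adjusted p = 0.00412). With the replicate block Rsad2 also rose with irradiation in knockout cells, by 2.40 ± 0.42 (block adjusted p = 0.0281). Ifi44 was higher by 3.00 ± 0.52 (adjusted p = 0.016) in nonirradiated knockout cells, and Xaf1 by 1.79 ± 0.24 (adjusted p = 0.00281). The Ifi44 call was lost with normexp, the percentile over detected probes and the slide as a block, and without NonIR-WT replicate 2 or NonIR-KO replicate 2 or 3 (adjusted p up to 0.0992). The Xaf1 call was lost with the slide as a block.

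Over all pathway lists, 46 of 54 listed genes were tested. In wild-type cells 16 rose with irradiation and none fell, against 0.423% of all features called higher. In the nonirradiated knockout 14 were higher and none lower, against 0.391%, a number that ranged from 5 to 16 when 1 array was left out, the fewest without NonIR-KO replicate 2. With the slide as a block it was 3. None was called with irradiation in knockout cells, by genotype after irradiation, or in the difference of the irradiation effects, in which 1462, 963 (5.23%) and 166 features passed an unadjusted p of 0.05. With the replicate block 26 rose with irradiation in wild-type cells, against 1.64% of features called higher, and 6, against 1.18%, rose with irradiation in knockout cells, none differed by genotype after irradiation, and 2, Usp18 and Isg15, had a smaller irradiation effect in the knockout, at -2.43 ± 0.26 and -2.40 ± 0.26 (block adjusted p = 0.0287 for each).

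**Figure D5:**
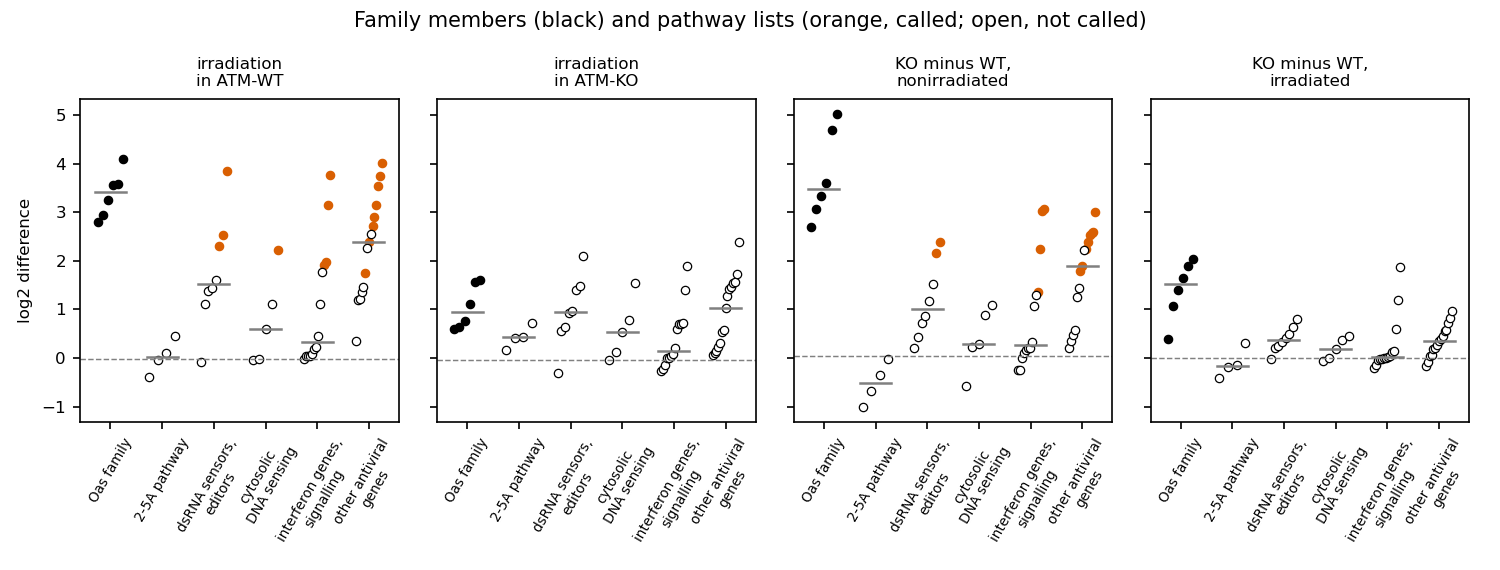
Each point is the log2 difference of 1 gene in 4 comparisons, for the 6 family members (black) and the tested genes of 5 pathway lists (orange, limma adjusted p under 0.05; open, not called). Grey bars are list medians and the dashed line is the median of all features; the pathway downstream of the synthetases has no called gene.

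The pattern of each member over the 12 arrays was compared with that of every named gene outside the family by the root mean square (RMS) of the differences between gene-centred log2 values. This is a description of the same arrays, without a test. Oas1a lay nearest to Ccl5, a chemokine (RMS 0.86), then Irf7 (0.87) and Usp18 (0.89), and Oas1f nearest to Irf7 (0.84), Ccl5 (0.86) and Usp18 (0.86). Oas1a and Oas1f lay nearer to each other, at 0.39, than to any of these. Beside this, the median feature stood 2.23 from Oas1a, close to the RMS of Oas1a about its own mean, 2.20.

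Oas2 lay nearest to Irf7 (RMS 0.31), then Usp18 (0.65) and Apol9b, an apolipoprotein L gene (0.68). Oasl1 lay nearest to Irf7 (0.47), Cxcl10, a chemokine (0.47), and Usp18 (0.49). Oasl2 had the closest neighbours of all members, Usp18 (0.20), the ubiquitin-like modifier Isg15 (0.23) and Dhx58 (0.28). It also had the smallest RMS about its own mean, 1.34, beside 2.01 for Oas2. The distances are not scaled for this, so their sizes are not compared between members. Oas1d, dim throughout, lay nearest to Usp18 (0.50), Ccl5 (0.54) and Apol9b (0.59), and nearer still to Oasl1 in its own family (0.34).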

How the data were processed

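RNA of 12 samples was measured on single-colour arrays of design 014868. Deposited scanner output gives the intensity of each spot; per the file headers it came from Feature Extraction 10.7.1.1, and the submitters' processing notes name version 11.0, and this was not resolved. The probes' genome build is mm9, per the file headers. The authors also deposited a table of log2 values, which followed the scanner values after the scaling below (41174 of 41250 probes matched, lowest r 0.998, column medians -0.43 to 0.27); it was centred on each probe's median and served as an alternative.

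Spots of one probe were averaged, and log2 processed signal was scaled to each array's 75th percentile. Each gene was represented by its brightest probe, and 18430 features that passed the dim-probe filter were fitted with limma 3.58.1 (R 4.3.3; group means over 12 arrays; 8 residual and 4.13 prior degrees of freedom), with Benjamini-Hochberg adjustment. Genes were named through RefSeq accessions. The fit was tested on simulated data. Members and lists were chosen with earlier results of these data known. Named list genes were those with the largest and smallest called difference, with others marked in the text, genes of the oligoadenylate pathway and the 3 features nearest to each member; some that the rule names are not reported here. Ifna1, Mx1, Mx2, Herc6 and Cd68 were not analysed here.

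Labels share replicate numbers. Correlations of the deviations of same-numbered samples were 0.48 to 0.85 for irradiation in wild-type and 0.27 to 0.51 in knockout cells, 0.22 to 0.63 between irradiated genotypes, and -0.22 to 0.18 between nonirradiated ones, where the numbers do not pair the samples. Blocked values are printed where they change the call of a member, a relative or a named list gene. The normexp alternative used median in place of mean spot signal. The number of arrays and the spots not well above background limit the precision.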

Additional observations from a re-analysis of the deposited data

Results flagged for a closer look

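The irradiation effects on Oas1a differed between genotypes. The difference of the irradiation effects, knockout minus wild type, was -2.99 (SE 0.36), from 3.58 in wild-type and 0.59 in knockout cells, and was called in the limma fit over 18430 features. The family had been chosen with this contrast known, so the call is no independent evidence. It was lost in 14 of 20 alternative settings.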

How the results depend on the processing

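Alternatives were normexp background correction, quantile normalization, the 75th percentile over probes detected on all arrays, no filter on dim probes, the mean over a gene's probes, the authors' deposited table, the replicate block, the slide as a block and leaving out each array. Of 600 member differences 579 moved by less than the spread between replicates, 18 moved further and 3 reversed. Many of the 579 could not move, so the count does not measure robustness. The replicate block and the run without a filter leave every difference as it was. The slide block leaves the irradiation effects and their difference. Leaving out an array changes only comparisons that use its group, and the mean over probes changes only Oas2 among the members. With normexp the family medians were 2.85 for irradiation in wild-type cells, -1.83 for the difference of the irradiation effects, 2.55 for the knockout without irradiation and 1.13 after it. With the mean over probes the median difference of the effects was -1.99.

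Normexp reversed Oas1d (-0.43 with irradiation in wild-type cells, -0.24 by genotype without irradiation, 0.88 for the difference of the effects), Oas1g (-0.70, -0.44 and 0.92), Oas3 (-0.54, -0.10 and 0.77) and the difference of the effects for Oas1e (0.20). That of Oas1g also reversed with quantile normalization (0.0114) and without NonIR-WT replicate 1 (0.13) or IR-WT replicate 3 (0.52), over a range from -0.46 to 0.52 without 1 array. Oas1d, Oas1g and Oas3 were not above background on any NonIR-WT array, and the cause was not tested. In the knockout against the wild type without irradiation the numbers pair no samples. The replicate block gave 184 features there in place of 158, and 18 list genes in place of 14. With it Oas1c (block adjusted p = 0.0185), Atm (0.0333), Ifih1 (0.048) and Stat2 (0.0285) passed, and Oas1g (0.0799) and Zbp1 (0.131) did not. Of 400 differences of relatives, 370 kept direction and side of the threshold.

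Features called for irradiation in wild-type cells (82) were 44 with normexp, 417 with the replicate block and 139 with the slide block, and 49 to 101 without 1 array. For irradiation in knockout cells (1) they were 0 with normexp, quantile normalization or no filter and 377 with the replicate block (0 to 2 without 1 array). For the difference of the effects (1) they were 0 with normexp, no filter or the slide block, 2 with quantile normalization or the detected-probe percentile and 4 with the replicate block (0 to 1). For the knockout without irradiation (158) they were 62 with normexp, 103 without a filter and 34 with the slide block (57 to 225). After irradiation (38) they were 13 with normexp, 21 with the detected-probe percentile, 20 without a filter and 3 with the slide block (3 to 104). List genes called were 26, 6 and 2 with the replicate block for irradiation in wild-type and knockout cells and the difference of the effects, 1 for the last with the detected-probe percentile, and 3 with the slide block for the knockout without irradiation. Without 1 array they were 5 to 16 for the knockout without irradiation and 0 to 1 after it.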
